A study of Mus musculus with 4 samples.

Results

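The 10 genes described here encode the subunits of the transcription factor NF-κB (*Rela*, *Relb*, *Rel*, *Nfkb1* and *Nfkb2*), proteins of the IκB family (*Nfkbia*, *Nfkbie* and *Nfkbiz*) and the ubiquitin-editing brake on the pathway (*Tnfaip3* and *Tnip1*). They were chosen by symbol, and all 10 were among the 16015 genes listed and the 13983 genes tested. Bulk RNA sequencing was available for the colonic epithelium of 2 control mice, labelled WT, and 2 mice labelled *Bmal1* cKO. The mice labelled *Bmal1* cKO carried *Villin-CreERT2* and *Bmal1* fl/fl, in which the *Villin* promoter restricts a tamoxifen-activated Cre to the intestinal epithelium, and the control mice were *Bmal1* fl/fl littermates without Cre. All were on a C57BL/6 background, were 2 to 4 months old and drank 3% dextran sulfate sodium (DSS), a polysaccharide that injures the colonic epithelium, for 5 days and then water for 2 days before collection on day 7. The methods describe tamoxifen for the activation of Cre and do not say whether the control mice received it.

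NF-κB is a dimer of Rel family proteins. In resting cells IκB proteins hold the dimer in the cytoplasm. Signals from cytokine receptors, Toll-like receptors and damaged tissue activate the IκB kinase, IκB is degraded, and the dimer enters the nucleus and induces cytokines, chemokines and survival genes. Several of the genes it induces encode its own subunits and inhibitors, so the pathway feeds back on itself. In the gut NF-κB acts both in epithelial cells, where it protects against cell death, and in the leukocytes that enter injured tissue.

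Values are given as normalized counts, that is, each gene's reads after division by a size factor that puts the libraries on a common scale. The libraries held 10312791 to 14156639 reads on the listed genes. The targeted gene *Bmal1*, listed as *Arntl*, had 358 and 342 normalized counts in the controls against 341 and 289 in the mice labelled *Bmal1* cKO (log2 fold change of -0.16, standard error [SE] 0.14, limma adjusted p = 0.389), and the log2 fold change was -0.48 after the correction for GC content described below (limma adjusted p = 0.0523). Each value sums the reads of a whole gene, so the floxed exon cannot be seen on its own, and the groups are named below as the labels name them. Colonic epithelium markers were present in all 4 libraries, with none of the 14 at 0. Their summed normalized counts were 228741 and 300721 in the controls against 187809 and 211692 in the mice labelled *Bmal1* cKO. The goblet cell gene *Muc2* alone held 62753 and 101737 of these in the controls against 24129 and 37690. It made up most of the difference between the sums. Markers of other cell types were not absent and differed between the groups, as given at the end of these results.

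Of the 10 genes, 6 fell in the mice labelled *Bmal1* cKO (*Rela*, *Relb*, *Nfkb2*, *Nfkbia*, *Nfkbie* and *Tnip1*), 1 rose (*Nfkbiz*) and 3 did not pass the test (*Rel*, *Nfkb1* and *Tnfaip3*). The falls ranged from 2.72-fold for *Relb* to 9.74-fold for *Nfkbie*. These are limma calls at an adjusted p under 0.05 over all tested genes, of which 27.7% were called lower and 29.0% higher. The groups did not overlap for 7 of the 10 genes, with the mice labelled *Bmal1* cKO lower for 6 and higher for 1, and did not overlap in these directions for 41.7% and 40.3% of all tested genes. The median log2 fold change of the 10 genes was -1.46, and that of all tested genes was -0.04. Fold changes are on the scale of log2(normalized count + 1), so that changes of weakly expressed genes are understated.

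**Figure D1:**
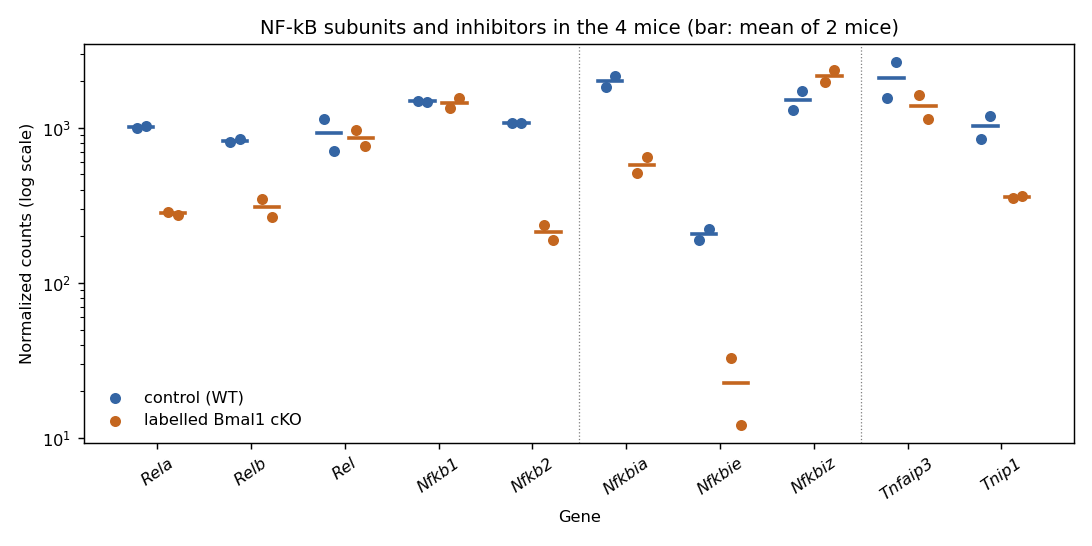
Normalized counts (log axis) of each gene in each of the 4 mice, with control mice in blue and mice labelled *Bmal1* cKO in orange. Each point is 1 mouse, the bar is the mean of 2 mice, and dotted lines part the subunits, the IκB family and the ubiquitin-editing genes. The groups are apart for 7 genes and overlap for *Rel*, *Nfkb1* and *Tnfaip3*.

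Fold changes in these libraries followed the GC content of the genes, which bears on each value below. When the tested genes were split by GC content into 10 classes of equal size, the median log2 fold change ran from 1.14 in the class with the least GC to -1.36 in the class with the most. The fold changes of the 10 genes are therefore also given after a loess correction of every library for GC content and transcript length. After the correction 17.1% of the tested genes were called lower and 16.6% higher, and 5 of the 10 genes fell (*Rela*, *Rel*, *Nfkb2*, *Nfkbia* and *Nfkbie*), none rose, and their median log2 fold change was -0.81 against -0.03 for all tested genes. The part of GC content in any single difference was not tested.

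*Rela* encodes p65, the transactivating subunit of the canonical dimer. It lies on chromosome 19 of GRCm38 (5637483 to 5648130, plus strand) and had a normalized count of 994 and 1030 in the controls, compared with 285 and 276 in the mice labelled *Bmal1* cKO. The mice of each group were close to each other and the groups did not overlap, a fall of 3.60-fold (log2 fold change of -1.85, SE 0.11, adjusted p = 5.33e-04 from limma). After the GC content correction the fall was 1.60-fold and still passed the test (adjusted p = 0.00911 from limma).

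*Nfkb2* encodes p100, which holds RelB in the cytoplasm until it is processed to p52, and lies on the same chromosome (46304320 to 46312385, plus strand). It had 1076 and 1069 normalized counts in the controls against 237 and 189 in the mice labelled *Bmal1* cKO. This was the largest fall among the subunits, 5.05-fold (log2 fold change of -2.34, SE 0.14, adjusted p = 5.33e-04 from limma), and it was 2.18-fold after the GC content correction (adjusted p = 0.00448 from limma).

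*Relb*, the partner of p52 in the non-canonical dimer (chromosome 7, 19606217 to 19629438, minus strand), had a normalized count of 808 and 846 in the controls, compared with 347 and 266 in the mice labelled *Bmal1* cKO. It fell 2.72-fold (log2 fold change of -1.44, SE 0.16, adjusted p = 0.00132 from limma). The GC content correction left a log2 fold change of -0.23 (SE 0.13, adjusted p = 0.206 from limma), so its call depended on that step.

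*Rel* encodes c-Rel, a subunit best known from lymphoid and myeloid cells (chromosome 11, 23736847 to 23770970, minus strand). It had 1145 and 705 normalized counts in the controls against 968 and 761 in the mice labelled *Bmal1* cKO. Both values of the mice labelled *Bmal1* cKO lay between those of the control mice, and a log2 fold change of -0.07 did not pass the test (SE 0.25, adjusted p = 0.836 from limma). Its GC content, 42.5%, was the lowest of the 10 genes, and the correction gave a log2 fold change of -1.02 (SE 0.26, adjusted p = 0.0331 from limma), a call that the uncorrected values did not give.

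*Nfkb1* encodes p105, the precursor of the DNA-binding subunit p50 (chromosome 3, 135584655 to 135691547, minus strand). It had a normalized count of 1496 and 1461 in the controls, compared with 1348 and 1557 in the mice labelled *Bmal1* cKO. The groups overlapped, and the log2 fold change was -0.03 before the correction (SE 0.11, adjusted p = 0.826 from limma) and 0.03 after it (SE 0.11, adjusted p = 0.836 from limma). With a GC content of 51.0%, *Nfkb1* sat where the median of all genes was near 0.

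*Nfkbia* encodes IκBα, the inhibitor that NF-κB resynthesizes within its own feedback loop (chromosome 12, 55489410 to 55492647, minus strand). It had 1831 and 2149 normalized counts in the controls against 513 and 643 in the mice labelled *Bmal1* cKO. It fell 3.45-fold (log2 fold change of -1.79, SE 0.15, adjusted p = 6.89e-04 from limma) and 2.34-fold after the GC content correction (adjusted p = 0.00505 from limma).

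*Nfkbie* encodes IκBε, a further cytoplasmic inhibitor (chromosome 17, 45555703 to 45563169, plus strand). It had a normalized count of 188 and 223 in the controls, compared with 32.9 and 12.2 in the mice labelled *Bmal1* cKO, the latter from 32 and 9 reads. It was the lowest of the 10 genes in every library, also per kilobase of exon, and showed the largest fall, 9.74-fold (log2 fold change of -3.28, SE 0.50, adjusted p = 0.00369 from limma), which was 6.03-fold after the GC content correction (adjusted p = 0.0155 from limma). The standard error was also the largest of the 10, and the mice labelled *Bmal1* cKO differed from each other by more than 2-fold. The log2 fold change was -3.97 without mouse 1 labelled *Bmal1* cKO and -2.60 without mouse 2.

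*Nfkbiz* encodes IκBζ, a nuclear IκB protein that acts as a coactivator at a subset of NF-κB genes rather than as a cytoplasmic inhibitor (chromosome 16, 55811375 to 55838899, minus strand). It had 1298 and 1723 normalized counts in the controls against 1979 and 2359 in the mice labelled *Bmal1* cKO. It was the only one of the 10 genes that was higher in both mice labelled *Bmal1* cKO than in both control mice, by 1.44-fold (log2 fold change of 0.53, SE 0.17, adjusted p = 0.0417 from limma). The call lay close to the threshold. It was lost after the GC content correction (log2 fold change of 0.34, adjusted p = 0.151 from limma), by edgeR (adjusted p = 0.0561), with scaling to equal library totals (0.30, adjusted p = 0.144 from limma), and without control mouse 1 (0.33, adjusted p = 0.168 from limma), without mouse 1 labelled *Bmal1* cKO (0.66, adjusted p = 0.0985 from limma) or without mouse 2 labelled *Bmal1* cKO (0.40, adjusted p = 0.224 from limma). With a mouse left out, the spread came from the other group alone.

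*Tnfaip3* encodes A20, which edits ubiquitin chains on signalling proteins upstream of the IκB kinase (chromosome 10, 19000910 to 19015657, minus strand). It had a normalized count of 1561 and 2651 in the controls, compared with 1626 and 1142 in the mice labelled *Bmal1* cKO. The control mice differed widely, the groups overlapped, and the log2 fold change of -0.58 did not pass the test (SE 0.29, adjusted p = 0.141 from limma), nor did that of -0.93 after the GC content correction (SE 0.28, adjusted p = 0.0540 from limma).

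*Tnip1* encodes ABIN1, which binds A20 and ubiquitin chains (chromosome 11, 54910785 to 54962917, minus strand). It had 846 and 1194 normalized counts in the controls against 355 and 365 in the mice labelled *Bmal1* cKO. It fell 2.79-fold (log2 fold change of -1.48, SE 0.18, adjusted p = 0.00187 from limma), and its log2 fold change after the GC content correction was -0.48 (SE 0.18, adjusted p = 0.0970 from limma).

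**Figure D2:**
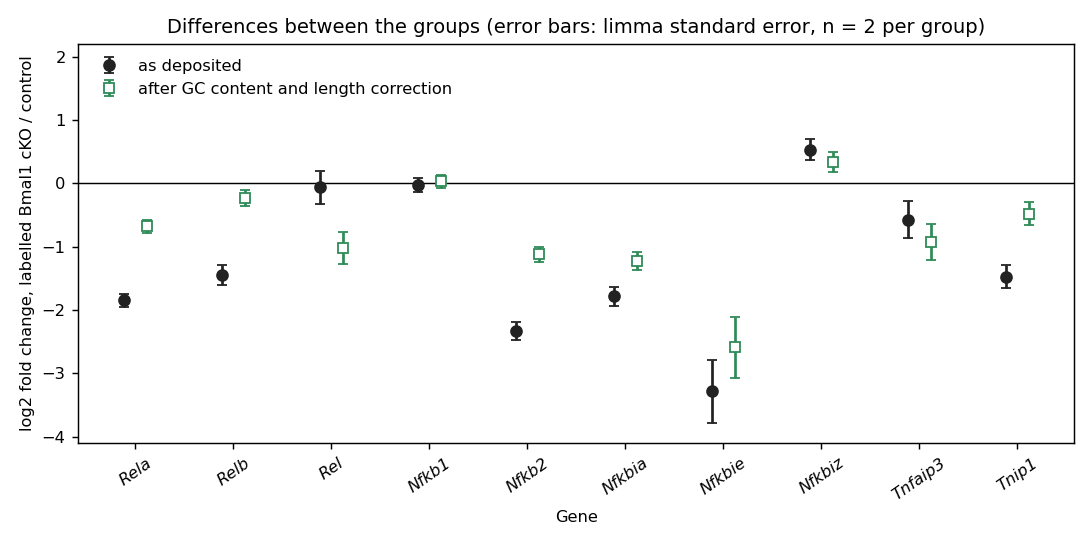
Log2 fold change of each gene between the mice labelled *Bmal1* cKO and the control mice, as deposited (black circles) and after the GC content and length correction (green squares). Error bars are limma standard errors with n = 2 mice per group. *Nfkbie*, *Nfkb2*, *Nfkbia* and *Rela* lie below 0 on both scales, while *Relb* moved from -1.44 to -0.23 and *Rel* from -0.07 to -1.02.

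The 10 genes spread from 42.5% GC for *Rel* to 59.1% for *Nfkb2* and *Relb*, and 4 of them (*Rela*, *Relb*, *Nfkb2* and *Tnip1*) fell in the class of genes with the most GC. Across the 10 genes Pearson's r between GC content and log2 fold change was -0.72 and Spearman's rho was -0.67, which describes genes measured in the same 4 libraries. Set against the median of their own GC class, 8 genes lay below it and 2, *Nfkb1* and *Nfkbiz*, above it. *Relb* at -1.44 and *Tnip1* at -1.48 were close to the median of -1.36 of their class. *Nfkb2* at -2.34 in that class, *Nfkbia* at -1.79 in a class with a median of -0.62 and *Nfkbie* at -3.28 in a class with a median of -0.83 were further below. *Tnfaip3* at -0.58 in a class with a median of 0.39 and *Rel* at -0.07 in a class with a median of 0.81 were also further below.

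**Figure D3:**
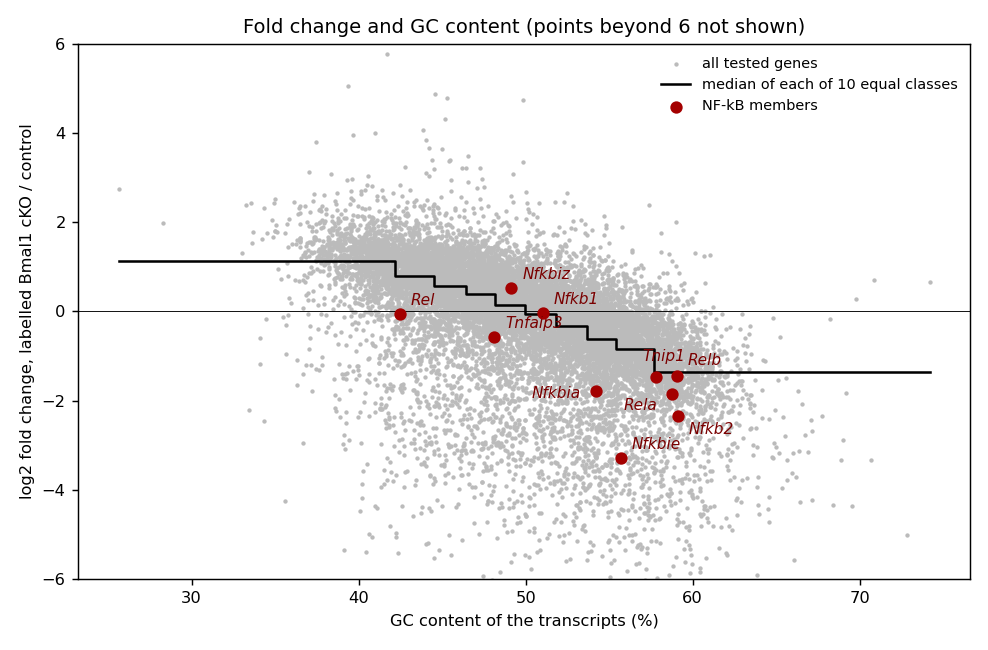
Log2 fold change against the GC content of the transcripts (%) for all tested genes (grey), with the 10 NF-κB genes in red. The black steps are the medians of 10 classes with equal numbers of genes and run from 1.14 to -1.36, and *Nfkbie*, *Nfkbia*, *Nfkb2*, *Tnfaip3* and *Rel* lie well below the step of their class while *Nfkbiz* lies above it.

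Ratios of a pair of genes within a library do not change with the scaling of that library. They are given as values with no test. An exact permutation test of 2 mice against 2 cannot give a p under 0.333, and no model was fitted to them. The ratio of *Nfkbia* to *Rela*, the inhibitor to its main target, was 1.84 and 2.09 in the controls against 1.80 and 2.33 in the mice labelled *Bmal1* cKO. These ranges overlapped, but after the GC content correction the log2 fold change of *Nfkbia* was below that of *Rela* (difference -0.54). The ratio of *Nfkb1* to *Rela* was 1.50 and 1.42 in the controls against 4.73 and 5.65 in the mice labelled *Bmal1* cKO, and that of *Nfkb1* to *Nfkb2* was 1.39 and 1.37 against 5.70 and 8.23. *Nfkb1* mRNA was thus higher relative to both in the mice labelled *Bmal1* cKO, and the differences in log2 fold change after the GC content correction were 0.71 against *Rela* and 1.15 against *Nfkb2*.

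The pair *Nfkb2* and *Relb* had the same GC content to the first decimal, 59.1%. Their ratio was 1.33 and 1.26 in the controls against 0.682 and 0.711 in the mice labelled *Bmal1* cKO, a change of 1.86-fold. It hardly moved with the correction, with a difference in log2 fold change of -0.90 before it and -0.89 after it. Within the IκB family the ratio of *Nfkbiz* to *Nfkbia* was 0.709 and 0.802 in the controls against 3.86 and 3.67 in the mice labelled *Bmal1* cKO, a log2 difference of 2.32, which was 1.56 after the GC content correction. The ratio of *Nfkbie* to *Nfkbia* was 0.103 and 0.104 in the controls against 0.0641 and 0.0189 in the mice labelled *Bmal1* cKO, a log2 difference of -1.57, which was -1.37 after the correction. Per kilobase of merged exons as well, *Nfkbiz* was above *Nfkbia* in both mice labelled *Bmal1* cKO and below it in both control mice. The ratio of *Tnip1* to *Tnfaip3* was 0.542 and 0.450 in the controls against 0.218 and 0.320 in the mice labelled *Bmal1* cKO, a log2 difference of -0.90 that turned to 0.45 after the correction. The ratio of *Tnfaip3* to *Nfkbia* was 0.853 and 1.23 against 3.17 and 1.78, a log2 difference of 1.21, which was 0.29 after it.

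Levels of different genes were compared as normalized counts per kilobase of merged exons. In the control mice *Nfkbia* was highest, at 1236 ± 140 per kilobase (SD, n = 2). *Rela* (329 ± 8.20), *Nfkbiz* (301 ± 59.8), *Tnfaip3* (291 ± 107) and *Tnip1* (288 ± 69.7) followed with ranges that overlapped. *Nfkb2* (234 ± 1.13) and *Relb* (213 ± 6.86) came next and lay apart from each other. *Rel* (124 ± 41.7) and *Nfkb1* (123 ± 2.05) overlapped, and *Nfkbie* was lowest, at 67.5 ± 7.98.

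In the mice labelled *Bmal1* cKO the order was different. *Nfkbiz* was highest, at 432 ± 53.5 normalized counts per kilobase (SD, n = 2), and overlapped with *Nfkbia* at 359 ± 57.2. *Tnfaip3* stood alone at 192 ± 47.4, and *Nfkb1* (120 ± 12.2), *Rel* (116 ± 19.6) and *Tnip1* (102 ± 2.02) followed, with *Rel* overlapping both neighbours. *Rela* (91.3 ± 2.11), *Relb* (78.9 ± 14.6), *Nfkb2* (46.4 ± 7.30) and *Nfkbie* (7.40 ± 4.82) made up the rest, each below the one before in both mice. *Rela* was thus in the second place in the control mice and in the seventh in the mice labelled *Bmal1* cKO, and *Nfkb1* in the ninth and the fourth. Per kilobase of the principal transcript *Rela* was in the fourth place and the eighth, and *Nfkb1* in the sixth and the third. These levels were not corrected for GC content, and the order in the mice labelled *Bmal1* cKO depends on that step, since the correction reduced the fall of *Rela* from 3.60-fold to 1.60-fold and gave *Rel* a fall of 2.02-fold.

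Of the reads per kilobase on the 5 subunit genes, *Rela* took 31.0% and 33.5% in the controls against 19.5% and 20.8% in the mice labelled *Bmal1* cKO. The share of *Nfkb2* was 22.5% and 23.3% against 10.9% and 9.59%. The share of *Nfkb1* was 11.9% and 12.1% in the controls against 23.5% and 30.0% in the mice labelled *Bmal1* cKO. These shares depend on the length used, since the merged exons of *Nfkb1* span 12061 bases and its principal transcript 4117. Per kilobase of the principal transcript the share of *Nfkb1* was 22.8% and 22.9% in the controls against 41.2% and 49.6% in the mice labelled *Bmal1* cKO, and that of *Rela* was 23.0% and 24.4% against 13.2% and 13.3%. With either length the shares of *Rela* and *Nfkb2* were lower and those of *Nfkb1* and *Rel* higher in both mice labelled *Bmal1* cKO. The shares were not corrected for GC content, and the place of *Rel* against *Rela* turned with that step: the log2 ratio of *Rel* to *Rela* was 1.79 higher in the mice labelled *Bmal1* cKO as deposited, and the difference of the corrected log2 fold changes was -0.34.

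**Figure D4:**
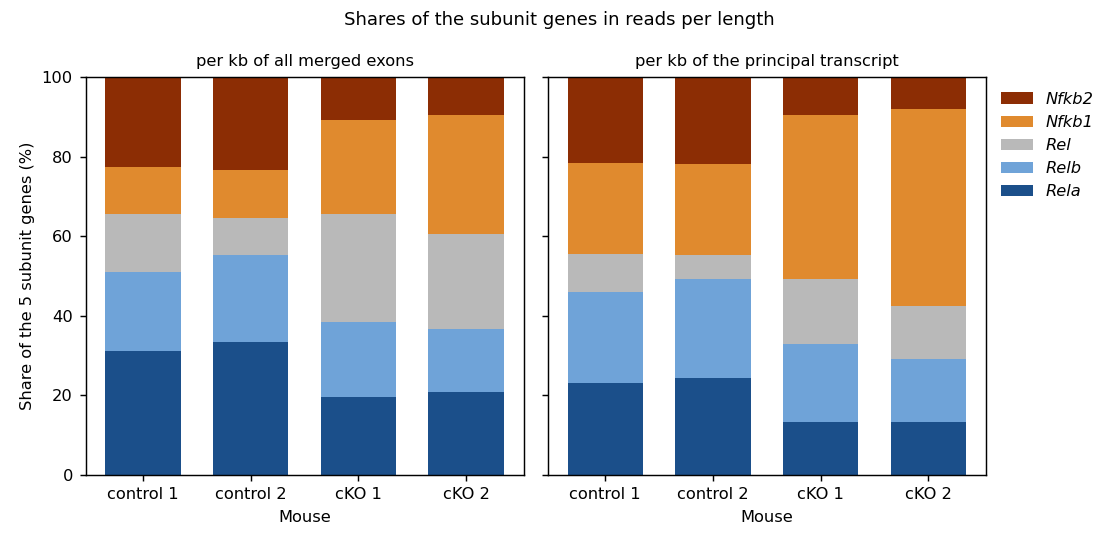
Share (%) of each subunit gene in the normalized counts per kilobase on the 5 subunit genes, for each of the 4 mice, with the length of all merged exons (left) or of the principal transcript (right). In both panels the share of *Nfkb1* is larger and those of *Rela* and *Nfkb2* smaller in the mice labelled *Bmal1* cKO, with *Nfkb1* at 41.2% and 49.6% on the right.

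Several of these genes are known to be NF-κB targets themselves, and matches to the κB consensus near their start sites are shown for that reason. The windows came from RefSeq (GRCm38.p6) and ran from 250 bases before to 50 bases after each start. They were given for 7 of the 10 genes, and none for *Relb*, *Nfkb1* and *Nfkbiz*. *Nfkb2* had 3 windows and *Tnfaip3* 2, and the stretches shown are from the first of each. The consensus searched was a run of G, a purine, any bases, pyrimidines and a run of C, on both strands, with overlapping matches joined. It was found for 6 of the 7 genes, *Rela* being the exception, against 9.55% of the 27025 genes with a window. The E-box CACGTG, the motif of BMAL1 with CLOCK, was found for 1 of the 7, *Tnfaip3*, 33 bases before the start, against 8.09% of all genes. The stretches are written 5′ to 3′ on the strand of the gene, with the matches in capitals.
*Nfkb2*, chr19:46304678-46304736, plus strand: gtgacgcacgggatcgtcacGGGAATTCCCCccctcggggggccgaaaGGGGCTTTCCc
*Nfkbia*, chr12:55492648-55492696, minus strand: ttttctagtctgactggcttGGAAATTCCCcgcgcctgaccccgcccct
*Nfkbie*, chr17:45555574-45555623, plus strand: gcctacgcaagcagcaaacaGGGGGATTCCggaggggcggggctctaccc
*Tnip1*, chr11:54962967-54963018, minus strand: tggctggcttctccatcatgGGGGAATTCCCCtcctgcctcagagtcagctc
*Rel*, chr11:23771031-23771081, minus strand: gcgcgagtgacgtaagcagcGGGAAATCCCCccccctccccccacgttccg
*Tnfaip3*, chr10:19015411-19015463, minus strand: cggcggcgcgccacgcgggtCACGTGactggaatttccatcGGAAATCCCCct

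The first match lay 39 bases before the start for *Nfkb2*, with another 11 bases before it, 29 bases before the start for *Nfkbia*, 106 for *Nfkbie*, 58 for *Tnip1* and 92 for *Rel*. In *Tnfaip3* the E-box and a κB match lay in the same stretch, the latter 12 bases before the start, and another κB match lay 125 bases before it. The genes with a match included 4 that fell and 2 that did not pass the test, *Rel* and *Tnfaip3*, while *Rela* fell and had no match in its window. These are the calls before the GC content correction. After it *Rel* was called lower and *Tnip1* was not. A match is a description of the letters and was not tested for binding.

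The 3 genes whose values across the 4 libraries lay nearest to the median profile of the 10, by Euclidean distance on log2 values centred on their mean and among 9973 genes, were *Lsm2* (0.05), *Pik3r2* (0.06) and *Slc48a1* (0.08). *Lsm2*, which encodes a protein of the U6 small nuclear ribonucleoprotein, had a normalized count of 460 and 554 in the controls, compared with 189 and 185 in the mice labelled *Bmal1* cKO. The likeness was measured on uncorrected values: after the GC content correction the log2 fold change was -1.34 for *Lsm2*, -0.69 for *Slc48a1* and 0.15 for *Pik3r2*, which had been -1.37 and was no longer called (adjusted p = 0.414 from limma).

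Of 49 other genes of the NF-κB pathway, from receptor adaptors to the IκB kinase and its ubiquitin ligases, 14 fell, 21 rose and 14 did not pass the test, with a median log2 fold change of 0.10. Over all tested genes 27.7% were called lower and 29.0% higher. Scaling to equal library totals, which put the median of all genes at -0.27, gave 17 lower and 15 higher, with no share over all genes taken. The GC content correction gave 9 lower and 7 higher, with a median of -0.02, against 17.1% and 16.6% of all tested genes. The share called lower, and both shares after the correction, were near those of all tested genes. With a mouse left out fewer of the pathway genes were called lower, and the share of all tested genes called in those fits was not taken.

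Among the IκB proteins and their relatives in that list, *Nfkbid*, which encodes the nuclear IκBNS, had 136 and 232 normalized counts in the controls against 44.2 and 36.5 in the mice labelled *Bmal1* cKO (log2 fold change of -2.12, adjusted p = 0.00446 from limma), and its log2 fold change after the GC content correction was -1.17 (adjusted p = 0.0466 from limma). *Bcl3*, a nuclear IκB that pairs with p50 and p52, had 1189 and 842 against 219 and 247 (-2.10, adjusted p = 8.44e-04 from limma), and -0.82 remained after the correction (adjusted p = 0.0326 from limma). *Nfkbib*, which encodes IκBβ, had 396 and 475 against 144 and 149 (-1.56, adjusted p = 0.00112 from limma), but its log2 fold change after the GC content correction was -0.19 (adjusted p = 0.392 from limma). *Ube2v1*, a cofactor for the ubiquitin chains that activate the kinase, had 757 and 712 against 219 and 211 (-1.77, adjusted p = 5.33e-04 from limma; -1.35 and 0.00352 after the correction). Its sequence is close to that of *Ube2v2*, so its reads are less certain.

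The largest rises in the list were those of *Tax1bp1*, an adaptor of A20 (5474 and 6135 normalized counts in the controls, 13960 and 15017 in the mice labelled *Bmal1* cKO), *Ripk2*, the kinase of NOD receptor signalling (219 and 219 against 455 and 629), *Birc2*, a ubiquitin ligase of the TNF receptor complex (563 and 440 against 1210 and 1142), and *Azi2*, an adaptor of TBK1 (1330 and 1533 against 3339 and 3349). Their log2 fold changes ran from 1.23 to 1.32. After the GC content correction *Ripk2* (0.92, adjusted p = 0.0159 from limma) and *Azi2* (0.57, adjusted p = 0.0132 from limma) still passed the test, while *Tax1bp1* (0.29, adjusted p = 0.106 from limma) and *Birc2* (0.45, adjusted p = 0.0653 from limma) did not.

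The 3 subunits of the IκB kinase, singled out after their values were seen, did not all pass the test. The catalytic subunit *Chuk* rose (1411 and 1616 normalized counts against 3084 and 3074) and the regulatory subunit *Ikbkg* rose (610 and 758 against 1588 and 1302). The catalytic subunit *Ikbkb* had 1342 and 1044 against 1058 and 1068 (log2 fold change of -0.15, adjusted p = 0.379 from limma, and -0.12 after the correction). After the correction *Ikbkg* still passed (0.59, adjusted p = 0.0345 from limma) and *Chuk* did not (0.15, adjusted p = 0.297 from limma). *Traf1*, also singled out after its values were seen, is an adaptor that NF-κB induces. Its mean was under 100, and it showed the largest fall in the list, with a normalized count of 133 and 195 in the controls, compared with 15.4 and 9.46 in the mice labelled *Bmal1* cKO (log2 fold change of -3.63, adjusted p = 0.00147 from limma). After the correction it was -3.34 (adjusted p = 0.00549 from limma).

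**Figure D5:**
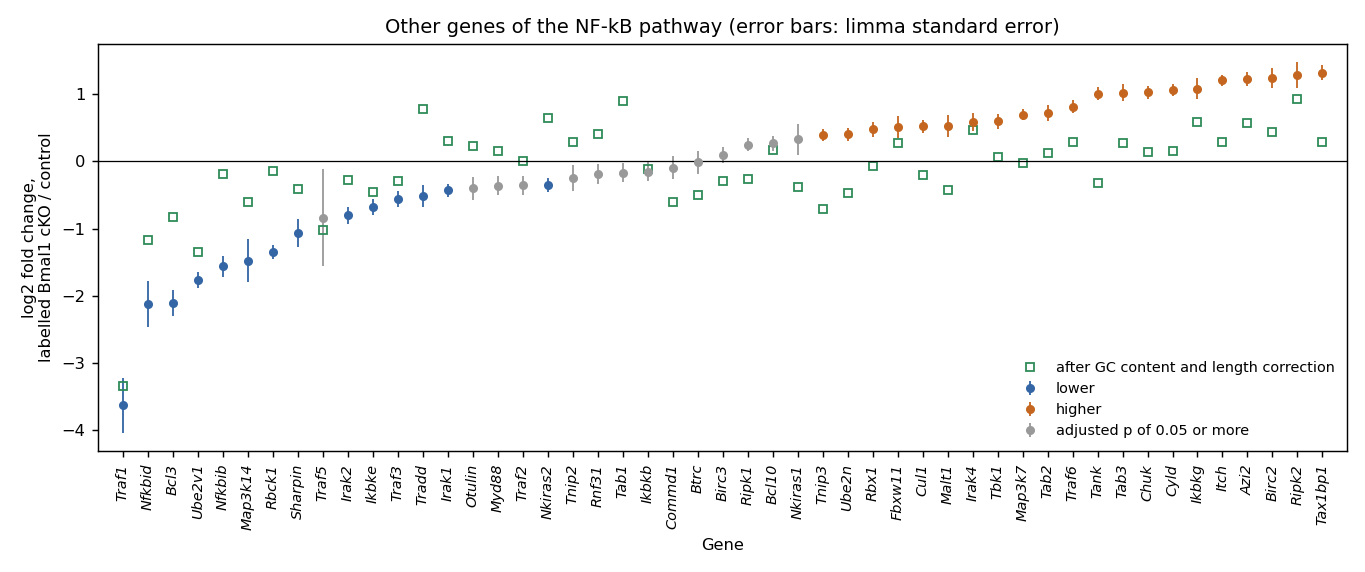
Log2 fold change of 49 other genes of the NF-κB pathway, in order of size, with limma standard errors (n = 2 mice per group). Circles are blue for the 14 genes called lower, orange for the 21 called higher and grey for the rest, and green squares give the values after the GC content and length correction, which lie nearer to 0 than the circles at both ends of the order.

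Of 20 genes known as NF-κB targets, a list chosen with earlier results of these data known, 19 were listed and tested. Of these 11 fell, none rose by the same test and 8 did not pass, with a median log2 fold change of -2.44, where 27.7% of all tested genes were called lower and 29.0% higher. After the GC content correction 10 fell and 1 rose, with a median of -2.95, where 17.1% and 16.6% of all tested genes were called. With a mouse left out fewer of them were called lower. The share of all tested genes called in those fits was not taken, so a loss of power cannot be told apart from a change in these genes. *Lcn2*, which encodes an iron-sequestering antibacterial protein, had 1201 and 3486 normalized counts in the controls against 12.3 and 4.06 in the mice labelled *Bmal1* cKO (log2 fold change of -7.96, adjusted p = 6.82e-04 from limma), and -7.55 after the correction (adjusted p = 0.00351 from limma). The granulocyte growth factor *Csf3* had 167 and 342 against 0 and 1.35, from 602 reads in the controls and 1 in the mice labelled *Bmal1* cKO. The ratio of these pooled reads, scaled by the summed size factors of each group, was 436 (95% exact binomial interval 77.9 to 17246, for counting error only).

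The neutrophil chemokine *Cxcl2* had a normalized count of 559 and 4157 in the controls, compared with 181 and 82.5 in the mice labelled *Bmal1* cKO (log2 fold change of -3.63, SE 0.95, adjusted p = 0.0229 from limma), and -4.21 after the correction (adjusted p = 0.0257 from limma). *Cxcl1* had 451 and 158 against 56.6 and 13.5 (-3.21, SE 0.79, adjusted p = 0.0191 from limma), and -3.84 after it (adjusted p = 0.0219 from limma). The control mice differed far more in these 2 chemokines than in *Rela*, *Nfkb2* or *Nfkbia*.

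Markers of leukocytes and stromal cells moved with the falls described above. Of 36 leukocyte, macrophage, neutrophil, T cell and B cell markers, 35 were tested, 26 fell and none rose. By list, 8 of 8 leukocyte, 7 of 8 macrophage and monocyte, 7 of 7 neutrophil, 3 of 6 tested T cell and 1 of 6 B and plasma cell markers fell. Over all tested genes 27.7% were called lower and 29.0% higher. The summed normalized counts of the 36 were 26244 and 27904 in the controls against 1985 and 2398 in the mice labelled *Bmal1* cKO, in which 2 and 1 of them were at 0. The B and plasma cell sums overlapped, at 9181 and 264 in the controls against 182 and 373. Of 10 fibroblast and smooth muscle markers 8 fell (sums of 14699 and 3393 against 456 and 485), and all 6 endothelial markers fell (sums of 1714 and 399 against 60.7 and 83.8). After the GC content correction 23 leukocyte, 9 fibroblast and smooth muscle and 5 endothelial markers fell, and none of the B and plasma cell markers did. Over all tested genes 17.1% were then called lower and 16.6% higher. Of the 14 colonic epithelium markers 5 fell and 2 rose before the correction, with a median log2 fold change of -0.39. The share called lower was then not far from that of all tested genes. After the correction 1 fell and 7 rose, with a median of 0.28, so the direction of that list depended on the correction. The control mice themselves differed, with neutrophil markers at 3289 and 19778, macrophage and monocyte markers at 6987 and 2292 and B and plasma cell markers at 9181 and 264. Across those same mice *Rela*, *Relb*, *Nfkb1* and *Nfkb2* were nearly level, while *Tnfaip3*, *Tnip1*, *Nfkbiz*, *Nfkbia* and *Nfkbie* were higher in control mouse 2 and *Rel* in control mouse 1. The part of these cells in the values of the NF-κB genes was not tested, and in bulk samples fewer cells of a type and less RNA per cell cannot be told apart.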

How the data were processed

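RNA of colonic epithelium from 2 control mice and 2 mice labelled *Bmal1* cKO was sequenced, and the authors used STAR for alignment to GRCm38 and DESeq2 for normalization, as the methods and the submitters' processing notes state. The counter, annotation release and strand setting are not given in the sources used here. The deposited values are a signal, gene counts divided by 1 size factor per library, and dividing them by the worth of a single read gave whole numbers for 100% of them (tolerance 0.1), which gave back the reads. The authors' columns of fold changes and p-values were not used. The lowest mean listed was 3.39. With 2 mice per group, p-values rest on the spread between these mice, which differed by more than sampling noise (chi-square per gene 40.9 between control mice and 10.1 between mice labelled *Bmal1* cKO).

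Values were taken to log2(value + 1), and genes with a mean of at least 10 were compared by limma 3.58.1 (R 4.3.3) with a mean-variance trend, two-sided, Benjamini-Hochberg adjustment over all tested genes and a threshold of 0.05. GC content and lengths came from GENCODE M21 transcripts (16003 genes matched), and the correction was a loess (span 0.3) per library on GC content and then log length. Alternatives were other pseudocounts (0.5 and 5), filters, scalings, edgeR 4.0.16 and DESeq2 1.42.0 on the recovered reads, a block for the mouse number, and leaving out each mouse, which leaves 1 mouse in a group that is assumed to vary like the other group. The length of the principal transcript was added after the data were seen. The fits were tested on simulated data. Members and lists were chosen with earlier results of these data known. The named genes were all 10 members, the targeted gene, the 3 nearest genes, and from each list the 4 largest falls and 4 largest rises with an adjusted p under 0.05, a mean of at least 100 and no overlap between groups.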

Additional observations from a re-analysis of the deposited data

How the results depend on the processing

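Over 15 alternatives, *Rela*, *Nfkb2*, *Nfkbia* and *Nfkbie* kept their direction and their call in every one, and 132 of the 150 values of the 10 genes did so. In 4 of these alternatives a mouse was left out, and the spread then came from the other group alone, so these 4 say little of the spread in the group with 1 mouse. The number of the 10 genes called higher was 0, in place of 1, with scaling to library totals, the GC content correction, edgeR, and the replicate block with that correction, and 0 to 1 when a mouse was left out. The number called lower stayed at 6, or 5 with the correction. The log2 fold change of *Rel* was 0.28 without control mouse 1 and 0.11 without mouse 2 labelled *Bmal1* cKO (-0.42 to 0.28 when a mouse was left out), and that of *Nfkb1* was 0.032 with the correction, with or without the block, and 0.075 without mouse 1 labelled *Bmal1* cKO (-0.13 to 0.075). Of the 49 other pathway genes 9 were lower and 7 higher with the correction, and 4 and 5 with the block as well. Leaving out a mouse gave 8 to 11 lower, and 6 to 8 of the target genes lower. The cause was not tested. Across the tested genes, the difference between mouse 1 and mouse 2 of the controls correlated at -0.09 with that of the mice labelled *Bmal1* cKO. With 1 such difference per group, this value cannot decide whether the mouse numbers pair the mice. With the replicate block alone 6 of the 10 genes were lower and 1 higher, 13 and 21 of the pathway genes were, and 14 target genes were lower. Levels per kilobase depend on the length used. The 9 to 32 reads on *Nfkbie* in the mice labelled *Bmal1* cKO limit the size of its fall.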
